A study of Saccharomyces cerevisiae with 12 samples.

Results

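The ATG genes of Saccharomyces cerevisiae, which encode the core and cargo-selecting machinery of autophagy, were followed over 4 groups of arrays, namely MMS-treated and untreated anc1Δ cells and MMS-treated and untreated wildtype cells, with 3 arrays in each group. Members were the probe sets whose single gene symbol was ATG followed directly by a number, and a gene with several such probe sets was read from the one with the highest mean log2 value over the 12 arrays. This gave 36 genes, from 39 probe sets, among the 5656 genes that the arrays measured through a probe set of a single gene. ATG6 and ATG24 were listed under the names VPS30 and SNX4, and were therefore not among the 36.

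Autophagy encloses cytoplasm or a chosen cargo in a double membrane, the autophagosome, which fuses with the vacuole, where its contents are degraded. In yeast it is set off when the TORC1 kinase is inactive, as under nitrogen starvation, and the Atg1 kinase then assembles with its partners at the site of membrane growth. Vesicles that carry Atg9, a lipid kinase complex and the attachment of the ubiquitin-like proteins Atg8 and Atg12 build the membrane, and receptors bind particular cargo to Atg8. The Cvt pathway uses much of the same machinery in growing cells to deliver vacuolar hydrolases.

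Both strains were of the BY4741 background (MATa his3Δ1 leu2Δ0 met15Δ0 ura3Δ0) and were grown in YPD, a rich medium, to mid-log phase. The array methods describe the anc1Δ strain, labelled anc1 or anc1 null, with a G418 resistance cassette at ANC1 (TAF14). That gene encodes a subunit shared by several transcription complexes. The list of strains gives the BY4741 anc1Δ strain with URA3 instead, and this conflict was not resolved. MMS (methyl methanesulfonate) is a DNA alkylating agent, and the labels and methods give neither its dose nor its time for these arrays. The untreated arrays came from 3 independent colonies of a strain. Whether the MMS-treated cultures were independent is not stated, so p-values cover only the spread among the samples at hand, possibly technical. The titles of the wildtype MMS arrays call them treated and their source names call them untreated. The titles were followed. RNA came from whole cultures, in which a change in every cell and a change in the share of cells with a transcript cannot be told apart.

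The values were RMA intensities on a linear scale, fitted as log2 values, and the number of arrays limits their precision. Of 9 genes known to be induced by MMS, 7 were higher in anc1Δ arrays titled treated than in untreated ones, and all 9 in wildtype. Their mean log2 intensity was 8.27 to 8.36 in MMS-treated against 7.29 to 7.37 in untreated anc1Δ, and 9.24 to 9.36 in MMS-treated against 7.34 to 7.44 in untreated wildtype, with a median rise of 0.71 in anc1Δ and 1.74 in wildtype. The ANC1 probe set gave intensities of 6.87 to 15.7 in anc1Δ, against 175 to 356 in wildtype. The 7 genes of a list expressed in MATa cells were all lower in anc1Δ than in wildtype, with and without MMS, although both strains are given as MATa. Those of the MATalpha list had mean log2 values of 4.82 to 5.24 on all arrays, and the mean of the MATa list was 6.91 to 7.09 on anc1Δ and 9.61 to 9.82 on wildtype arrays, so that it moved with every strain comparison described here, and its part in these was not tested. Arrays of one group correlated with r of 0.988 to 0.997. Actin control probe sets give a 3' to 5' intensity ratio that goes up as RNA is degraded, and it was 3.43 to 4.0 in MMS-treated against 1.74 to 1.85 in untreated anc1Δ, and 3.31 to 3.85 in MMS-treated against 1.47 to 1.68 in untreated wildtype. The ratio therefore moved with every MMS response described here, as did the mean log2 intensity of the ribosomal RNA control probe sets (7.89 to 8.66 against 10.5 to 10.6 in anc1Δ, and 7.30 to 7.61 against 10.0 to 10.6 in wildtype), and the part of either in the responses was not tested. The median intensity of an array was 114.7 to 119.8 for MMS-treated wildtype and 104.0 to 109.1 for the other groups.

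A subset of the ATG genes rose in anc1Δ cells under MMS. The mean log2 intensity over the 36 genes was 7.02 to 7.11 on MMS-treated anc1Δ arrays and 6.68 to 6.71 on untreated anc1Δ arrays, and 7.37 to 7.46 on MMS-treated wildtype arrays and 6.40 to 6.54 on untreated wildtype arrays. A gene was called where limma gave a Benjamini-Hochberg adjusted p under 0.05, over 9275 probe sets, and the fold was at least 1.5. In anc1Δ 10 of the 36 ATG genes were called higher with MMS than without, none lower and 26 did not pass, where 16% of all 5656 genes were higher and 15.7% lower. The 10 were ATG1, ATG2, ATG3, ATG5, ATG8, ATG11, ATG13, ATG21, ATG41 and ATG45. The median log2 change was 0.32 over the 36 genes and -0.014 over all genes. Treated arrays lay wholly above untreated ones in 20 members, as in 34.6% of all genes, and wholly below in 4, as in 36.1%. Without the limit on fold 19 members were higher and 3 lower, and 58.9% of all genes passed. Just under 1.5-fold were ATG9, which was called without anc1Δ untreated replicate 2 (0.64) or anc1Δ MMS replicate 2 (0.61) or 3 (0.59), ATG26, called without anc1Δ untreated replicate 1 (0.60) or anc1Δ MMS replicate 1 (0.66), and ATG40, called without anc1Δ untreated replicate 1 (0.65) or anc1Δ MMS replicate 3 (0.61). With 3 arrays against 3 an exact permutation test, two-sided, cannot give a p below 0.1 for a single gene.

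The same treatment moved more of the ATG genes in wildtype cells. There 27 of the 36 were called higher with MMS than without, 1 was lower and 8 did not pass, where 27.7% of all genes were higher and 20.8% lower. All 10 genes called higher in anc1Δ were among the 27. The arrays compared were others, but both comparisons came from the same fit, with a shared variance for each gene, and are not independent. How many of all genes called higher in anc1Δ were also higher in wildtype was not counted. The median log2 change was 0.98 over the members and 0.078 over all genes. In 30 members all 3 treated arrays lay above all 3 untreated ones, as in 41.9% of all genes, and in 3 they lay below, as in 32.7%. The called rises ran from 1.57-fold in ATG32, a mitophagy receptor, to 10.0-fold in ATG41. Without the limit on fold 31 members passed, and 73.4% of all genes. With each array centered on its median 24 members were called higher. ATG4 (0.53), ATG23 (0.56) and ATG32 (0.53) then fell under the fold limit. Over all genes this centering gave 1355 higher and 1408 lower, against 1569 higher and 1175 lower without it.

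Tested as an interaction, the MMS response was smaller in anc1Δ than in wildtype for 19 of the 36 ATG genes and larger for none. Of all genes, 14.2% were called with a lower and 9.58% with a higher response in anc1Δ. The median difference, anc1Δ response minus wildtype response, was -0.59 on the log2 scale for the members and -0.079 for all genes. The difference was negative in 32 of the 36 members, and in 3204 of all 5656 genes. The 9 genes known to be induced by MMS moved the same way, with a median difference of -0.70, negative in all 9 and called in 6, so that a smaller response was not particular to the ATG genes, and its part in their values was not tested. Without the limit on fold 20 members passed, and 35.5% of all genes. At a limit of 2-fold 6 of the 19 were still called, while of all 5656 genes 285 were lower and 155 higher. With each array centered on its median, 15 were called, while over all genes 627 were lower and 666 higher, against 805 lower and 542 higher without this centering. The 17 other members had differences of -0.56 to 0.47, and for these a p that misses the threshold does not show that the strains responded alike.

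**Figure D1:**
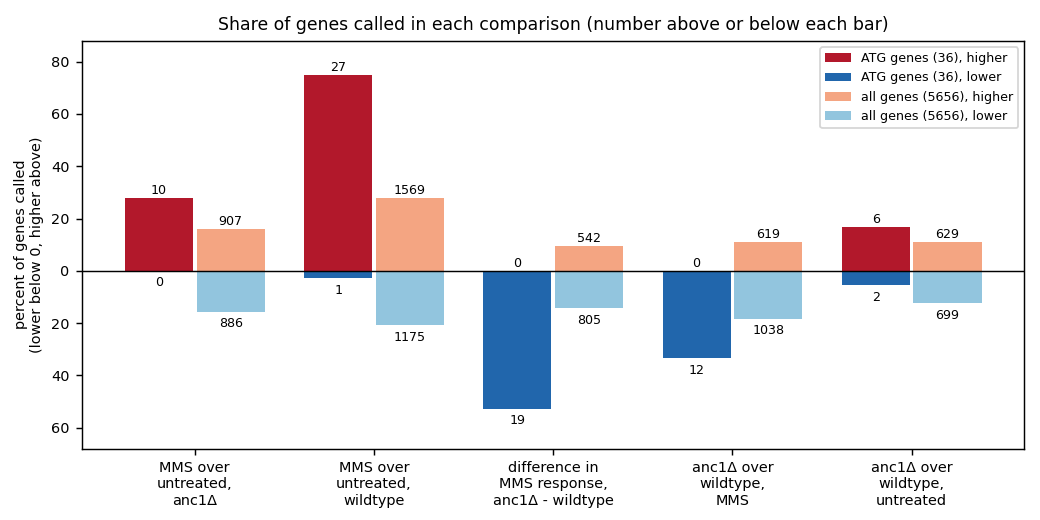
Percent of the 36 ATG genes and of all 5656 genes called higher (above 0) or lower (below 0) in each of the 5 comparisons, with the number of genes at each bar. The bar of ATG genes higher under MMS in wildtype stands for 27 genes, and that of ATG genes with a smaller MMS response in anc1Δ for 19.

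**Figure D2:**
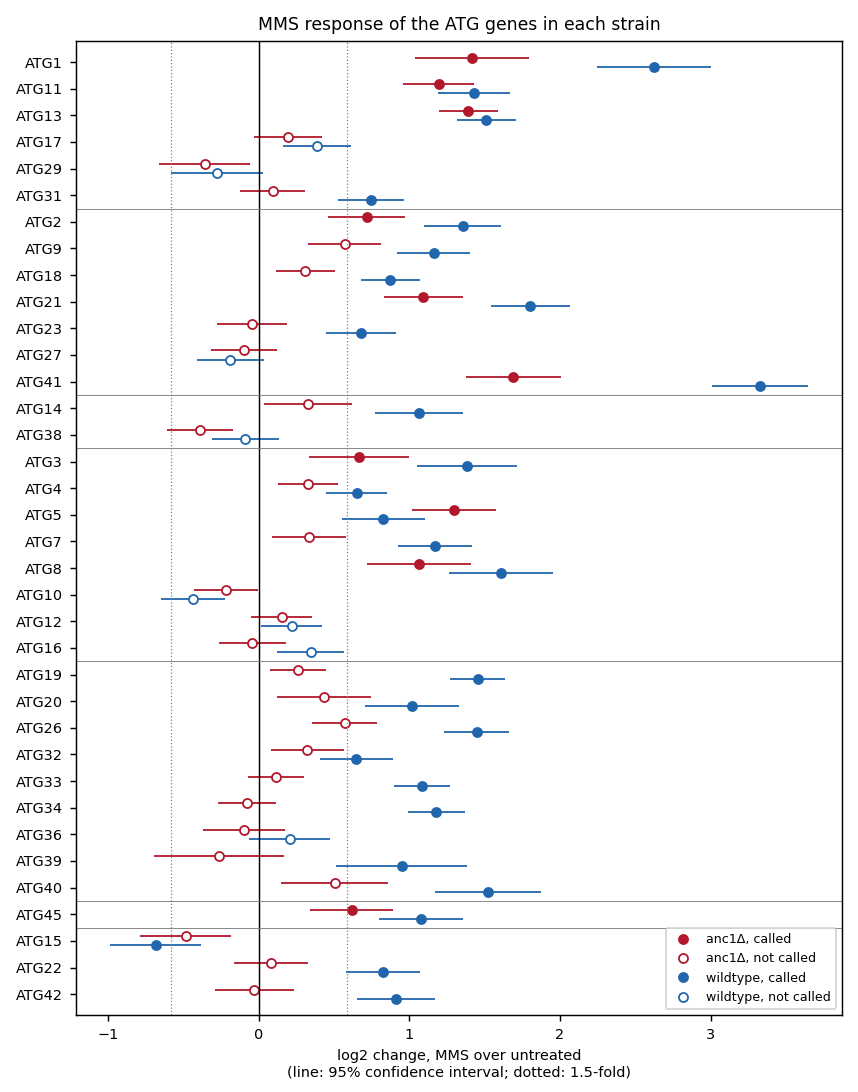
Log2 change of each ATG gene under MMS in anc1Δ (red, upper point of each pair) and wildtype (blue, lower point), with 95% confidence intervals from limma. Filled points were called, open points were not, dotted lines mark 1.5-fold, and gray lines separate the functional groups from the Atg1 complex at the top to the vacuole at the bottom. The wildtype point lies to the right of the anc1Δ point for 32 of the 36 genes. Over all 5656 genes the wildtype change was the larger in 3204.

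Of the Atg1 kinase complex and its scaffolds, 3 of 6 genes rose in anc1Δ and 4 of 6 in wildtype. Of all genes, 16% and 27.7% rose. ATG1 (YGL180W), the kinase itself, measured 86.2, 87.8 and 89.8 in MMS-treated anc1Δ against 30.8, 33.1 and 35.2 in untreated anc1Δ, and 192, 171 and 144 in MMS-treated wildtype against 35.2, 29.3 and 19.5 in untreated wildtype. Treated and untreated arrays were far apart in both strains, and the treated wildtype arrays lay above all treated anc1Δ arrays. Its log2 change was 1.41 (SE 0.175, adjusted p = 2.17e-05) in anc1Δ and 2.63 (SE 0.175, adjusted p = 3.32e-08) in wildtype, a difference of -1.21 (95% interval -1.75 to -0.68, adjusted p = 0.00334). ATG13 (YPR185W), the regulatory partner of Atg1 that TORC1 phosphorylates, measured 454, 420.4 and 480.3 in MMS-treated anc1Δ against 164, 179 and 173 in untreated anc1Δ, and 433, 391 and 414 in MMS-treated wildtype against 154, 147 and 134 in untreated wildtype. Both strains reached overlapping levels under MMS, with log2 changes of 1.39 in anc1Δ and 1.51 in wildtype. Their difference of -0.12 (95% interval -0.40 to 0.16) was not called. ATG11 (YPR049C), the scaffold of selective autophagy, measured 139.7, 108 and 134 in MMS-treated anc1Δ against 56.5, 52.8 and 56.6 in untreated anc1Δ, and 177, 171 and 177 in MMS-treated wildtype against 57.8, 66.6 and 70.9 in untreated wildtype. It rose by 1.19 in anc1Δ and 1.43 in wildtype, and the difference of -0.24 (95% interval -0.57 to 0.10) was not called. Of the trimeric scaffold for starvation-induced autophagy, ATG31 rose in wildtype (0.74) with a smaller response in anc1Δ (difference -0.65, adjusted p = 0.00479), a call that was lost without anc1Δ untreated replicate 3 (-0.56). ATG17 and ATG29 were not called in any comparison.

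**Figure D3:**
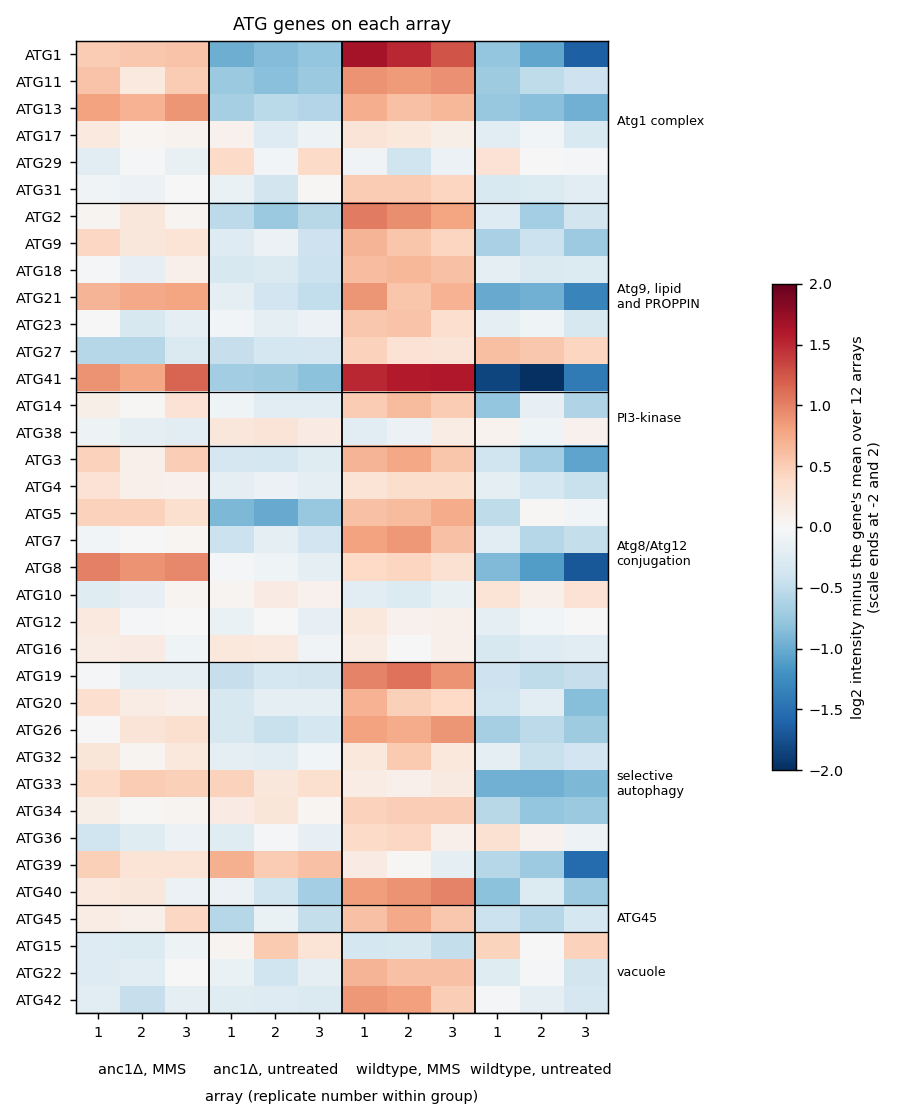
Log2 intensity of the 36 ATG genes (rows, by functional group) on each of the 12 arrays (columns, 3 per group), minus the mean of the gene over all 12 arrays. Red is above and blue below that mean, and colors end at -2 and 2. The 3 wildtype MMS columns are red in most rows, and ATG10, ATG15, ATG29 and ATG38 are among the rows where they are not.

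Of 7 genes that act on Atg9 vesicles, on lipid transfer and on phosphoinositide binding, 3 rose in anc1Δ, 6 rose in wildtype and 5 had a smaller response in anc1Δ. The shares of all genes, with a lower response for the last, were 16%, 27.7% and 14.2%. ATG41 (YPL250C), which encodes an Atg9-binding protein needed for full autophagosome formation, measured 1430.2, 1308 and 1720.2 in MMS-treated anc1Δ against 471, 467 and 435 in untreated anc1Δ, and 2169, 2287 and 2324 in MMS-treated wildtype against 216, 184 and 289 in untreated wildtype. The 4 groups did not overlap, with untreated wildtype at the bottom and treated wildtype at the top. Its log2 change was 1.69 (SE 0.147, adjusted p = 9.91e-07) in anc1Δ and 3.33 (SE 0.147, adjusted p = 9.14e-10) in wildtype, and the difference of -1.63 (95% interval -2.08 to -1.19, adjusted p = 0.000134) was the largest of the 19. ATG9 (YDL149W), the transmembrane lipid scramblase, measured 49.4, 43.4 and 44.6 in MMS-treated anc1Δ against 30.8, 34.1 and 27.8 in untreated anc1Δ, and 59.4, 54.2 and 49.8 in MMS-treated wildtype against 23.4, 27.4 and 22.4 in untreated wildtype. Its rise in anc1Δ (0.57, 1.49-fold) stopped short of 1.5-fold and the rise in wildtype was 1.16 (SE 0.112, adjusted p = 1.04e-06). The difference of -0.59 was just past 1.5-fold (adjusted p = 0.0150) and fell short of it without any one of 6 arrays (-0.55 without anc1Δ MMS replicate 2, -0.57 without anc1Δ MMS replicate 3, -0.52 without anc1Δ untreated replicate 2, -0.52 without wildtype MMS replicate 1, -0.56 without wildtype untreated replicate 1 and -0.53 without wildtype untreated replicate 3). ATG2 (YNL242W), the lipid transfer protein, measured 126, 143 and 126 in MMS-treated anc1Δ against 84.7, 73.0 and 83.0 in untreated anc1Δ, and 251, 231 and 209.9 in MMS-treated wildtype against 101, 76.2 and 94.2 in untreated wildtype. Treated arrays were above untreated ones in both strains, by 0.72 in anc1Δ and 1.35 in wildtype. The difference of -0.64 (adjusted p = 0.0134) fell short of 1.5-fold without wildtype MMS replicate 1 (-0.58) or wildtype untreated replicate 2 (-0.52).

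The PROPPIN genes encode phosphoinositide-binding propellers. ATG21 (YPL100W), of the Cvt pathway, measured 587, 619 and 631 in MMS-treated anc1Δ against 325, 280.5 and 259.6 in untreated anc1Δ, and 673, 540.1 and 593 in MMS-treated wildtype against 183, 188 and 148 in untreated wildtype. The strains overlapped under MMS, while without MMS the anc1Δ arrays lay above the wildtype arrays, and the gene rose by 1.09 in anc1Δ and 1.80 in wildtype (difference -0.71, adjusted p = 0.00850). ATG18 (YFR021W), the partner of Atg2, measured 164, 149 and 180.1 in MMS-treated anc1Δ against 134, 138 and 125 in untreated anc1Δ, and 256, 265 and 252 in MMS-treated wildtype against 148, 137 and 138 in untreated wildtype. In anc1Δ its 0.31 did not reach the fold limit and in wildtype it rose by 0.87. The difference of -0.56 passed on adjusted p (0.00606) but not on fold, which it did pass without wildtype untreated replicate 1 (-0.60), anc1Δ untreated replicate 3 (-0.60) or anc1Δ MMS replicate 3 (-0.63). ATG23, which works with Atg9 vesicles, rose in wildtype by 0.68, and the difference in response was -0.72 (adjusted p = 0.00409). ATG27, another companion of Atg9, was the exception of this group, with log2 changes under MMS of -0.10 in anc1Δ and -0.19 in wildtype, neither called.

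In the conjugation systems 3 of 8 genes rose in anc1Δ and 5 of 8 in wildtype, and the difference was called lower for 2. The shares of all genes were 16%, 27.7% and 14.2%. ATG8 (YBL078C), the ubiquitin-like protein that is joined to membrane lipid and whose amount is known to bear on the size of autophagosomes, measured 2654, 2457 and 2564 in MMS-treated anc1Δ against 1291, 1242 and 1142 in untreated anc1Δ, and 1736, 1765 and 1619 in MMS-treated wildtype against 716, 604 and 405 in untreated wildtype. The anc1Δ arrays lay above the wildtype arrays both with and without MMS. Under MMS it rose by 1.06 (SE 0.159, adjusted p = 0.000112) in anc1Δ and by 1.61 (SE 0.159, adjusted p = 1.28e-06) in wildtype, and the difference of -0.55 (95% interval -1.03 to -0.057) was not called, except without wildtype untreated replicate 1 (-0.72). Without wildtype untreated replicate 3, the lowest of its group, it was -0.31 (adjusted p = 0.112). ATG5 (YPL149W), which receives Atg12, measured 424, 424 and 387 in MMS-treated anc1Δ against 166, 154 and 183 in untreated anc1Δ, and 464, 478 and 516 in MMS-treated wildtype against 218, 316 and 297 in untreated wildtype. It was the member with the largest difference in the other direction, with a rise of 1.30 in anc1Δ and 0.83 in wildtype. That difference of 0.47 (95% interval 0.077 to 0.86) was not called, except without wildtype untreated replicate 1, the lowest of its group (0.63).

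ATG7 (YHR171W), the activating enzyme of both systems, measured 83.3, 87.0 and 88.6 in MMS-treated anc1Δ against 63.9, 76.5 and 65.9 in untreated anc1Δ, and 149.8, 157 and 129.7 in MMS-treated wildtype against 74.2, 58.3 and 61.8 in untreated wildtype. In anc1Δ treated arrays were above untreated ones by 0.33, under the fold limit, whereas in wildtype it rose by 1.17 (SE 0.114, adjusted p = 1.09e-06). The difference was -0.84 (95% interval -1.19 to -0.49, adjusted p = 0.00231). ATG3, the Atg8-conjugating enzyme, rose by 0.66 in anc1Δ and 1.38 in wildtype, and its difference of -0.72 (adjusted p = 0.0251) was lost without any one of 4 arrays (-0.59 without anc1Δ MMS replicate 2, -0.68 without anc1Δ untreated replicate 3, -0.66 without wildtype MMS replicate 2 and -0.55 without wildtype untreated replicate 3). ATG4, the protease that processes Atg8, had a change of 0.33 in anc1Δ, not called, and rose by 0.65 in wildtype, with a difference of -0.32 that was not called. ATG10, ATG12 and ATG16 were not called in any comparison.

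**Figure D4:**
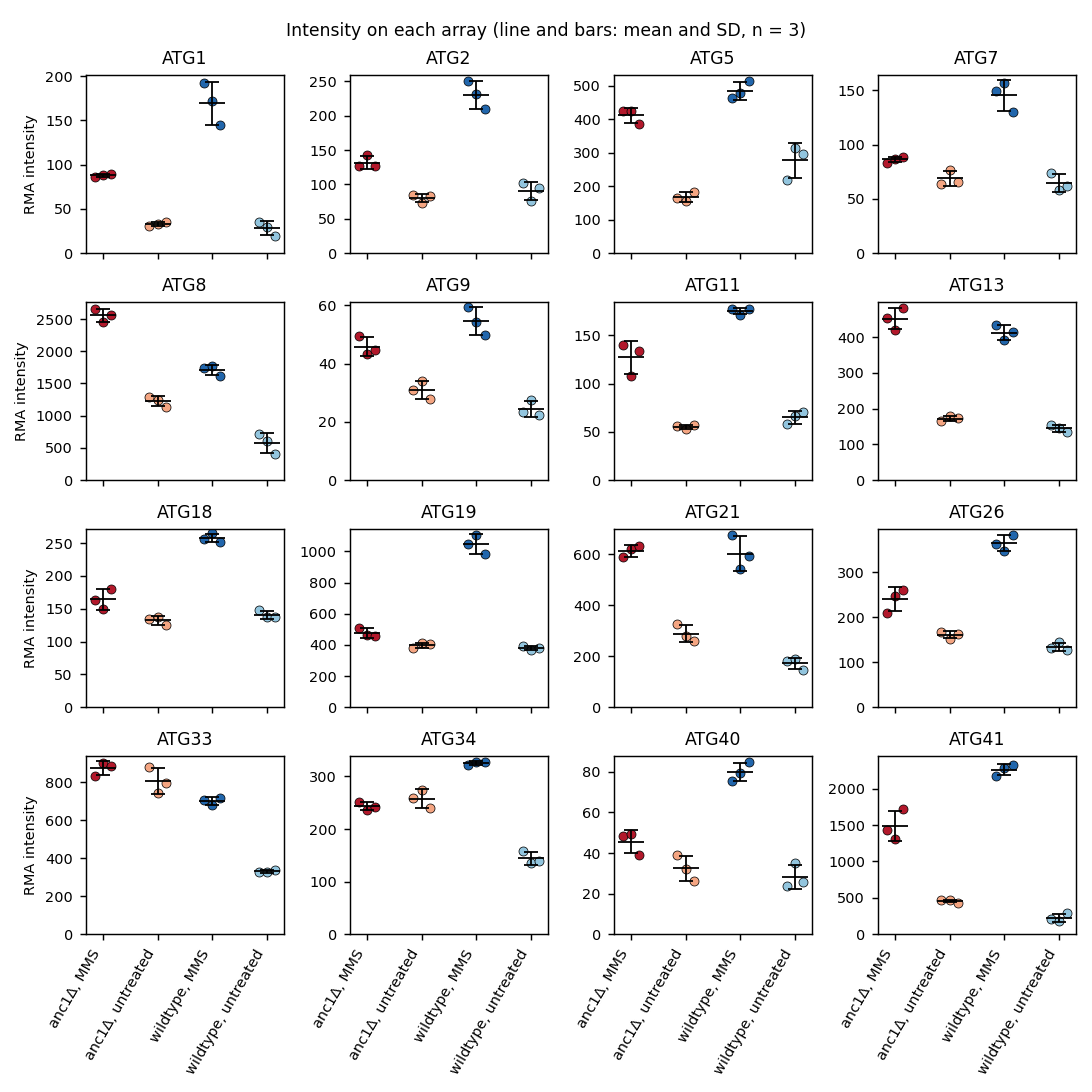
RMA intensity (linear axis from 0, with its own scale in each panel) of the 16 members shown with a value on every array, in anc1Δ with MMS, anc1Δ untreated, wildtype with MMS and wildtype untreated. Points are arrays, and the horizontal line and bars are the mean and SD of 3 arrays. In ATG19 the wildtype MMS points stand at 980 to 1107 and all other points lie between 370.1 and 510.2.

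Of 9 genes for receptors and other factors of selective autophagy, none was called under MMS in anc1Δ, 8 rose in wildtype and the response was smaller in anc1Δ for 7. Of all genes 16% rose in anc1Δ, 27.7% rose in wildtype and 14.2% were called with a lower response in anc1Δ. In anc1Δ 5 of the 9 passed on adjusted p but not on fold, and 58.9% of all genes passed on adjusted p. ATG19 (YOL082W), the receptor of the Cvt pathway, measured 510.2, 465 and 455 in MMS-treated anc1Δ against 379, 409.9 and 404 in untreated anc1Δ, and 1047, 1107 and 980.0 in MMS-treated wildtype against 393, 370.1 and 381 in untreated wildtype. The 3 treated wildtype arrays stood apart from the 9 others. Its log2 change was 0.26 (SE 0.0854, adjusted p = 0.0220) in anc1Δ and 1.45 (SE 0.0854, adjusted p = 1.10e-08) in wildtype, and the difference was -1.19 (95% interval -1.45 to -0.93, adjusted p = 2.73e-05). A second probe set of ATG19, with a mean intensity of 11.3, gave -0.081 in anc1Δ and -0.39 in wildtype, neither called, and with both averaged ATG19 was not called under MMS in wildtype (0.53), nor for the difference (-0.44) nor between the strains under MMS (-0.27). ATG34 (YOL083W), the paralog of ATG19 that lies next to it in the genome and serves as a receptor under starvation, measured 252, 237 and 243 in MMS-treated anc1Δ against 259.8, 274 and 239 in untreated anc1Δ, and 322, 328 and 328 in MMS-treated wildtype against 158, 136 and 139 in untreated wildtype. In anc1Δ treated and untreated arrays overlapped, at a change of -0.078, and in wildtype it rose by 1.18 (difference -1.26, adjusted p = 2.37e-05).

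ATG33 (YLR356W), a mitochondrial protein that serves mitophagy, measured 831, 902 and 884 in MMS-treated anc1Δ against 879, 745 and 797 in untreated anc1Δ, and 707, 679.8 and 719 in MMS-treated wildtype against 327, 326 and 339.6 in untreated wildtype. Untreated anc1Δ arrays already lay above the treated wildtype arrays. The change under MMS was 0.12 in anc1Δ, not called, and 1.09 in wildtype, with a difference of -0.97 (adjusted p = 0.000117). ATG39, the receptor of the perinuclear ER, had intensities of 260.4, 225 and 225 in MMS-treated anc1Δ against 306, 265 and 281 in untreated anc1Δ, and 209.8, 191 and 163 in MMS-treated wildtype against 126, 112 and 64.1 in untreated wildtype. All untreated anc1Δ arrays lay above all wildtype arrays. The difference in response was -1.21 (adjusted p = 0.00717), with a rise of 0.95 in wildtype. ATG40 (YOR152C), the receptor of the peripheral ER, measured 48.4, 49.6 and 39.1 in MMS-treated anc1Δ against 39.0, 32.0 and 26.4 in untreated anc1Δ, and 75.7, 79.3 and 84.7 in MMS-treated wildtype against 23.9, 34.9 and 25.7 in untreated wildtype. Its change was 0.50 (1.42-fold, not called) in anc1Δ, and it rose by 1.52 (SE 0.163, adjusted p = 2.70e-06) in wildtype, a difference of -1.02 (adjusted p = 0.00613).

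ATG26 (YLR189C), a sterol glucosyltransferase needed for pexophagy in the yeast Komagataella phaffii, measured 210.1, 248 and 261 in MMS-treated anc1Δ against 167, 152 and 164 in untreated anc1Δ, and 363, 347 and 383 in MMS-treated wildtype against 131, 144 and 127 in untreated wildtype. Treated arrays lay above untreated ones in both strains, by 0.57 (1.48-fold, not called) in anc1Δ and 1.45 in wildtype. The difference was -0.88 (adjusted p = 0.000745). ATG20, a sorting nexin, rose in wildtype by 1.02, and its difference of -0.59 lay at the limit of both criteria (adjusted p = 0.0465). Without any one of 8 of the 12 arrays that difference was between -0.63 and -0.41 with an adjusted p of 0.0605 to 0.112, and it was still called only without anc1Δ MMS replicate 1, wildtype MMS replicate 3 or wildtype untreated replicate 1 or 2. ATG32, the mitophagy receptor, rose in wildtype by 0.65, and by 0.54 without wildtype MMS replicate 2, under the fold limit. ATG36, the pexophagy receptor, was the only one of the 9 not called under MMS in wildtype (0.20). ATG45, described as a receptor for glycogen, rose by 0.62 in anc1Δ and 1.08 in wildtype. Its anc1Δ change fell under the fold limit without anc1Δ MMS replicate 3 (0.52) or anc1Δ untreated replicate 1 (0.52) or 3 (0.58).

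Of the PI3-kinase complex, ATG14, the subunit that directs it to autophagy, rose in wildtype by 1.06 (SE 0.135, adjusted p = 1.35e-05), with a difference in response of -0.74 (adjusted p = 0.0125). ATG38, of the same complex, was not called in any comparison. In the vacuole, ATG22 and ATG42 rose in wildtype and ATG15 fell. ATG22, an exporter of amino acids, rose by 0.82, and ATG42, a serine carboxypeptidase, by 0.91, with differences in response of -0.74 (adjusted p = 0.00479) and -0.94 (adjusted p = 0.00162). ATG42 had intensities of 468, 398 and 486 in MMS-treated anc1Δ against 463, 459.9 and 451 in untreated anc1Δ, and 1001, 973 and 776 in MMS-treated wildtype against 541, 483 and 436 in untreated wildtype, so that its anc1Δ arrays overlapped and its wildtype arrays did not. ATG15, the lipase that breaks up autophagic bodies, was the only member called lower under MMS, with a log2 change of -0.49 in anc1Δ, not called, and -0.68 (SE 0.139, adjusted p = 0.000735) in wildtype. It measured 67.9, 67.1 and 75.6 in MMS-treated anc1Δ against 83.9, 116 and 97.5 in untreated anc1Δ, and 63.3, 64.8 and 58.4 in MMS-treated wildtype against 109.6, 81.2 and 112 in untreated wildtype. Without anc1Δ untreated replicate 1 its anc1Δ change was -0.60 and was called. Its other 2 probe sets gave -0.40 and -0.71 in anc1Δ and -0.40 and -0.64 in wildtype. The second of these was called lower in both strains (adjusted p = 0.00183 in anc1Δ and 0.00263 in wildtype), so the fall was not confined to wildtype, and the mean of all its probe sets (-0.57 in wildtype) did not reach the fold limit.

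Without MMS, 6 ATG genes were higher in anc1Δ than in wildtype, 2 were lower and 28 did not pass, where 11.1% of all genes were higher and 12.4% lower. The median log2 change was 0.15 over the members and -0.10 over all genes. The 6 were ATG39 (1.55), ATG33 (1.28), ATG8 (1.13), ATG41 (1.02), ATG34 (0.84) and ATG21 (0.74). Called in either direction were 22.2% of the members, near the 23.5% of all genes. The 9 genes of selective autophagy held 3 of the 6, and the 6 genes of the Atg1 complex held none. These groups are small and were not tested against each other. ATG8 averaged 1225 ± 76.2 in anc1Δ and 575 ± 157 in wildtype (SD, n = 3 each; adjusted p = 0.00275), and ATG33 averaged 807 ± 67.6 in anc1Δ and 331 ± 7.60 in wildtype (adjusted p = 7.06e-05). ATG27 was lower, with a log2 change of -0.90 (SE 0.103, adjusted p = 0.000363), at 171, 184 and 187 in anc1Δ against 356, 341 and 317 in wildtype, and ATG5 was lower with -0.71 (SE 0.156, adjusted p = 0.00789). In 12 members all anc1Δ arrays lay above all wildtype arrays (23.5% of all genes) and in 3 below (37.2%). Without the limit on fold 9 members passed, and 44.8% of all genes. Leaving out any one array changed none of these 8 calls. The actin 3' to 5' ratio was 1.74 to 1.85 in anc1Δ and 1.47 to 1.68 in wildtype, and its part in these differences was not tested.

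Under MMS, 12 ATG genes were lower in anc1Δ than in wildtype and none was higher, with 18.4% of all genes lower and 10.9% higher. The median log2 change was -0.37 over the members and -0.18 over all genes. Of the 9 genes known to be induced by MMS, 4 were lower and none higher, with a median of -0.49. The mean log2 of the ribosomal RNA controls, at 7.89 to 8.66 in anc1Δ and 7.30 to 7.61 in wildtype, did not overlap between these groups, and the actin ratio, at 3.43 to 4.0 in anc1Δ and 3.31 to 3.85 in wildtype, did. The part of these and of the MMS-induced genes in the strain differences was not tested. The 12 were ATG19 (-1.13), ATG42 (-1.02), ATG1 (-0.93), ATG27 (-0.81), ATG2 (-0.81), ATG40 (-0.81), ATG22 (-0.78), ATG7 (-0.75), ATG18 (-0.65), ATG23 (-0.64), ATG41 (-0.61) and ATG26 (-0.61). Of the 7 genes of Atg9 vesicles, lipid transfer and PROPPINs, 5 were among them. ATG27 measured 158, 157 and 192 in anc1Δ and 322, 288 and 280.2 in wildtype, and was the only member called in the same direction with and without MMS. ATG8 stood at the other end, with a log2 change of 0.58 (adjusted p = 0.00722) just short of 1.5-fold. It was called higher in anc1Δ without wildtype MMS replicate 1 (0.60), wildtype MMS replicate 2 (0.61) or anc1Δ MMS replicate 2 (0.61). In 22 members all anc1Δ arrays lay below all wildtype arrays (48.5% of all genes) and in 4 above (23.5%). Without the limit on fold 20 members passed, and 59.8% of all genes. Single arrays decided the calls of ATG23 (-0.56 without anc1Δ MMS replicate 2), ATG41 (-0.53 without the same array) and ATG26 (-0.52 without anc1Δ MMS replicate 1 and -0.57 without wildtype MMS replicate 3), and ATG36 (-0.55) was called lower without wildtype MMS replicate 3 (-0.65) or anc1Δ MMS replicate 3 (-0.62). When each array was centered on its median, 8 members were lower and 1, ATG8 (0.71), was higher, and over all genes 672 were lower and 768 higher, against 1038 lower and 619 higher without this centering.

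A difference in response equals the strain difference under MMS minus that without MMS, so both were set side by side for the 19 genes with a smaller response in anc1Δ. These comparisons share arrays. In ATG21, ATG33, ATG34 and ATG39 only the untreated comparison was called, with anc1Δ higher. In 9 genes, ATG1, ATG2, ATG7, ATG19, ATG22, ATG23, ATG26, ATG40 and ATG42, only the MMS comparison was called, with anc1Δ lower. ATG41 was called in both, higher in anc1Δ without and lower with MMS. In ATG3, ATG9, ATG14, ATG20 and ATG31 neither was called. The mean level was lowest in untreated wildtype, followed by untreated anc1Δ, MMS-treated anc1Δ and MMS-treated wildtype, in 15 of the 36 genes. MMS-treated wildtype had the highest mean in 25 and untreated wildtype the lowest in 23. These orders were not counted over all genes. The median intensity of an array was also highest in MMS-treated wildtype (114.7 to 119.8, against 104.0 to 109.1 in the other groups). Neighbors in this order often did not differ beyond their spread, as in untreated ATG19, at 398 ± 16.1 in anc1Δ and 381 ± 11.4 in wildtype (SD, n = 3 each).

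**Figure D5:**
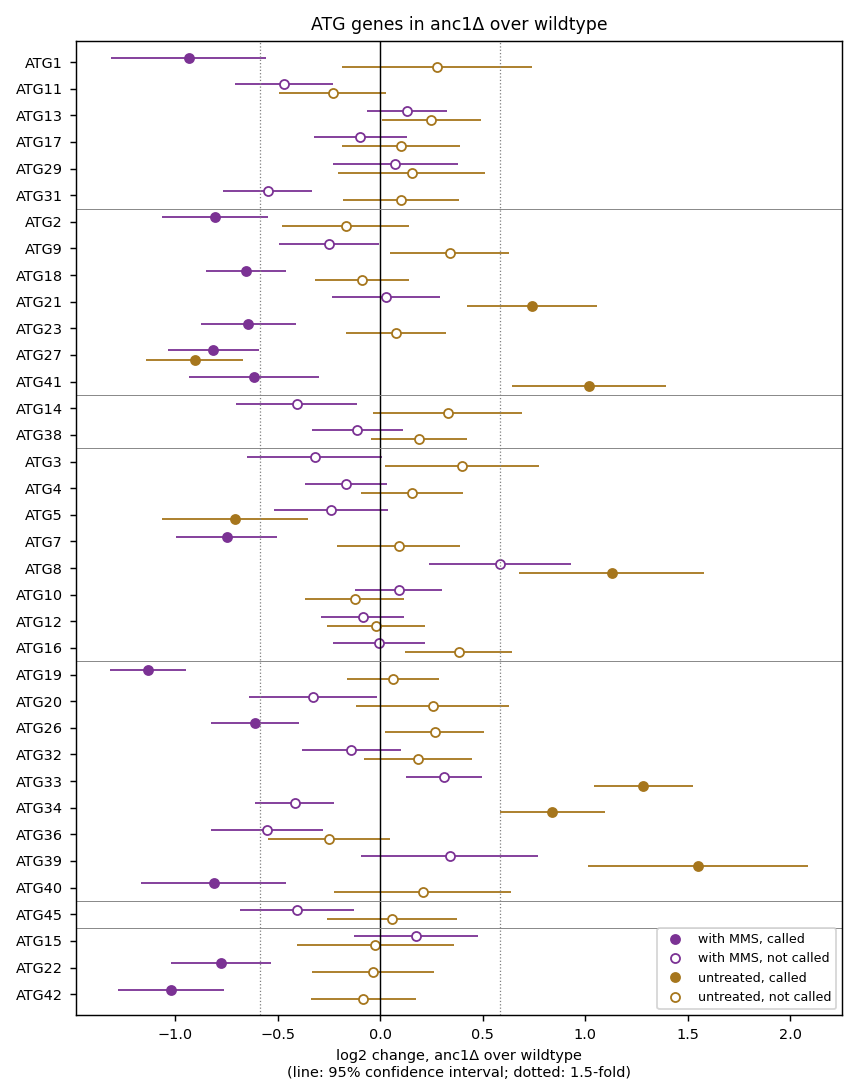
Log2 change of each ATG gene in anc1Δ over wildtype with MMS (purple, upper point of each pair) and untreated (brown, lower point), with 95% confidence intervals from limma. Filled points were called, open points were not, dotted lines mark 1.5-fold, and gray lines separate the same functional groups. With MMS 12 purple points are filled, all left of 0, and untreated 6 brown points are filled right of 0 and 2 left of it.

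Called in none of the 5 comparisons were 7 members, namely ATG10, ATG12, ATG16, ATG17, ATG29, ATG36 and ATG38. Among them ATG10, of Atg12 conjugation, had log2 changes of -0.22 in anc1Δ and -0.43 in wildtype under MMS, and the wildtype change had an adjusted p of 0.00162 but stayed under the fold limit. ATG16 and ATG29 lay in the dimmest 25% of all probe sets.

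Genes of 8 further lists were counted by the same criteria, and the percent of all genes called in each comparison is given above. VPS30 (ATG6), a PI3-kinase subunit, and SNX4 (ATG24), a sorting nexin, rose by 0.88 and 1.49 in anc1Δ and by 1.30 and 2.05 in wildtype. Of 4 PI3-kinase subunits shared with vacuolar sorting, 1 rose and none fell under MMS in anc1Δ (median log2 change 0.40) and 3 rose and none fell in wildtype (0.86). Among the subunits the response was called higher in anc1Δ for none and lower for none (median difference -0.41), and between the strains anc1Δ was called higher for none and lower for none with MMS, and higher for none and lower for 1 without. VPS15 rose by 0.86 and VPS34, the lipid kinase, by 0.85 in wildtype, and VPS38 was lower in untreated anc1Δ (-0.71). Of 3 cargo genes of the Cvt pathway, 1 rose and none fell under MMS in anc1Δ (median log2 change 0.22) and 2 rose and none fell in wildtype (2.02). For the cargo the response was called higher in anc1Δ for none and lower for 2 (median difference -1.19), and between the strains anc1Δ was called higher for none and lower for 1 with MMS, and higher for 1 and lower for none without. APE1, the aminopeptidase that Atg19 carries, rose by 1.42 in anc1Δ and 2.62 in wildtype, with a difference in response of -1.19. AMS1, the vacuolar mannosidase, had 0.22 in anc1Δ, not called, and rose by 2.02 in wildtype, and without MMS it was higher in anc1Δ by 1.88.

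Of 7 genes for vacuolar proteases and an inhibitor, none rose and 1 fell under MMS in anc1Δ (median log2 change 0.18) and 4 rose and 1 fell in wildtype (0.80). Among the proteases the response was called higher in anc1Δ for none and lower for 3 (median difference -0.44), and between the strains anc1Δ was called higher for 1 and lower for 1 with MMS, and higher for 3 and lower for 1 without. PEP4, the protease that activates the others, had 0.27 in anc1Δ, not called, and rose by 1.01 in wildtype, with a called difference of -0.74. PRC1, carboxypeptidase Y, had 0.18 in anc1Δ, not called, and rose by 0.91 in wildtype, with a called difference of -0.74. PBI2, an inhibitor of protease B, fell in both strains, with -1.38 in anc1Δ and -0.95 in wildtype. Of 16 genes for fusion with the vacuole, 4 rose and none fell under MMS in anc1Δ (median log2 change 0.25) and 7 rose and none fell in wildtype (0.51). For the fusion genes the response was called higher in anc1Δ for none and lower for none (median difference -0.26), and between the strains anc1Δ was called higher for none and lower for 5 with MMS, and higher for none and lower for 2 without. VPS33, of the HOPS tether, rose by 1.42 in anc1Δ and 1.34 in wildtype. Of 8 genes of the TRAPPIII complex and its GTPase Ypt1, none rose and none fell under MMS in anc1Δ (median log2 change 0.30) and 2 rose and none fell in wildtype (0.024). In TRAPPIII the response was called higher in anc1Δ for none and lower for none (median difference 0.11), and between the strains anc1Δ was called higher for 1 and lower for 2 with MMS, and higher for none and lower for 1 without. TRS85, which directs the complex to autophagy, rose by 0.88 in wildtype and was lower in MMS-treated anc1Δ by comparison (-0.75).

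Of 24 genes of TORC1, Sch9, PKA and Snf1 signaling upstream of Atg1, 5 rose and none fell under MMS in anc1Δ (median log2 change 0.35) and 13 rose and none fell in wildtype (0.61). For the signaling genes the response was called higher in anc1Δ for none and lower for 4 (median difference -0.24), and between the strains anc1Δ was called higher for none and lower for 4 with MMS, and higher for none and lower for 2 without. NPR1, a kinase under the control of TORC1, rose by 1.47 in anc1Δ and 2.11 in wildtype, with a called difference of -0.63. TAP42, a phosphatase partner under TORC1, rose by 0.79 in anc1Δ and 1.51 in wildtype, with a called difference of -0.71. Of 17 regulators of transcription and RNA that are reported to act on ATG genes, 6 rose and 1 fell under MMS in anc1Δ (median log2 change 0.25) and 8 rose and 1 fell in wildtype (0.55). Among the regulators the response was called higher in anc1Δ for none and lower for 4 (median difference -0.24), and between the strains anc1Δ was called higher for none and lower for 2 with MMS, and higher for 2 and lower for none without. GAT1, a GATA activator of nitrogen-limited cells, rose by 1.62 in anc1Δ and 2.39 in wildtype, and was higher in untreated anc1Δ by 0.73. HSF1, the heat shock factor, rose by 1.95 in anc1Δ and 2.52 in wildtype. Of 14 genes known to respond to nitrogen or amino acid limitation, 2 rose and 5 fell under MMS in anc1Δ (median log2 change -0.12) and 4 rose and 3 fell in wildtype (0.14). In the limitation list the response was called higher in anc1Δ for 1 and lower for 6 (median difference -0.45), and between the strains anc1Δ was called higher for 4 and lower for 3 with MMS, and higher for 2 and lower for 1 without. ARG4, of arginine synthesis, had 0.21 in anc1Δ, not called, and rose by 2.43 in wildtype. GLN1, glutamine synthetase, fell in both strains, with -0.85 in anc1Δ and -1.13 in wildtype.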

How the data were processed

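RNA of 12 samples was hybridized to Affymetrix YG-S98 arrays. The deposited intensity values, on a linear scale, were made by the authors with RMA, with version and set of jointly normalized arrays not stated. They were taken as log2 with no further normalization. Of 9335 probe sets, 60 controls were left out and 9275 fitted. Of these, 6504 name 1 gene, 328 several and 2443 none, which gave 5656 genes, all matched to RefSeq names. Groups follow the sample titles. For 3 anc1Δ samples the description says wildtype and the title anc1.

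limma 3.58.1 in R 4.3.3 was fitted on the 6 untreated arrays for the strains without MMS and on all 12 arrays for the other comparisons, with Benjamini-Hochberg adjustment, a threshold of 0.05 and a fold of at least 1.5. The fits were tested on simulated data. Alternatives were other sets of arrays, each array left out, the replicate block, median centering, quantile normalization, no dim probe sets, a trended prior, the methods' LPE test, other fold limits and averaged probe sets. Samples with the same replicate number deviated together in anc1Δ with and without MMS for all 3 numbers (r of 0.17 to 0.37). In the other comparisons (-0.46 to 0.25) this held for single numbers only. These were replicate 3 of wildtype with and without MMS (0.25) and replicate 1 of the strains under MMS (0.14). The pairing in anc1Δ is therefore a hint from the data only.

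Values on every array are given for ATG1, ATG8, ATG9 and ATG13 and for called members with the smallest adjusted p, 16 in all. ATG15, ATG27, ATG39 and ATG42 were added after their values were seen. From other lists up to 4 called genes could be named. The members and lists were chosen with earlier results of these data known. No sequences were used here.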

Additional observations from a re-analysis of the deposited data

Results flagged for a closer look

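The MMS response, on the log2 scale, was called different between anc1Δ and wildtype by limma's test of the interaction for 19 ATG genes, which is what set them apart here. The differences, anc1Δ response minus wildtype response, were ATG41 (-1.63), ATG34 (-1.26), ATG1 (-1.21), ATG39 (-1.21), ATG19 (-1.19), ATG40 (-1.02), ATG33 (-0.97), ATG42 (-0.94), ATG26 (-0.88), ATG7 (-0.84), ATG22 (-0.74), ATG14 (-0.74), ATG23 (-0.72), ATG3 (-0.72), ATG21 (-0.71), ATG31 (-0.65), ATG2 (-0.64), ATG9 (-0.59) and ATG20 (-0.59). All are negative. Of these genes ATG1, ATG2, ATG3, ATG21 and ATG41 were called higher under MMS in both strains, and the other 14 in wildtype only. With 3 arrays in a group no test for single arrays far from their group was made.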

How the results depend on the processing

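Of 77 called changes of ATG genes over the 5 comparisons, 34 were called under every alternative run and none turned its sign. Without a fold limit 19 members rose and 3 fell in anc1Δ, 2 fell in wildtype, and 2 were higher in anc1Δ than in wildtype under MMS. With a limit of 2-fold 40 of the 77 calls were lost. Then 4 members were higher and none lower in untreated anc1Δ, 7 rose in anc1Δ, and 18 rose and none fell in wildtype. Under MMS 2 were lower in anc1Δ, and 6 had a smaller response there. Of all 5656 genes at this limit, 309 were higher and 166 lower in untreated anc1Δ, 353 rose in anc1Δ and 863 in wildtype. Under MMS 268 of them were lower in anc1Δ, and 285 had a lower response there. Averaging probe sets of a gene left 0 fallen in wildtype. Centering each array on its median, which shifted the median change of all genes by -0.12 in wildtype under MMS and by 0.13 between the strains under MMS, and quantile normalization each gave 1 member higher in anc1Δ under MMS. Under centering 12 of the 77 calls were lost. With the replicate block the counts were 10 rises in anc1Δ and 27 in wildtype, 12 lower in anc1Δ under MMS and 19 smaller responses, and it changed no call of the 36 genes. Leaving out 1 array gave 9 to 11 rises and 0 to 1 falls in anc1Δ, 26 to 27 rises in wildtype, 10 to 13 lower and 0 to 1 higher in anc1Δ under MMS, and 16 to 20 smaller and 0 to 1 larger responses. The LPE test could not be run for the difference in response. Brightness limits ATG16 and ATG29, among the dimmest 25% of probe sets by their mean over all arrays. Within untreated wildtype ATG1, ATG9, ATG14, ATG23 and ATG40 were also among the dimmest 25%, at percentiles of 21.3 to 23.6. Their rises in wildtype therefore started from low values.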
